A study of Homo sapiens with 6 samples.

Results

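The interferon pathway was read from bulk RNA-seq of the human melanoma cell line A375 through a list of 58 genes: the interferon receptors, the JAK kinases, STAT and IRF factors that carry the signal, the inhibitors that end it, and the genes that interferon induces. The genes were taken from the deposited table by name, and 57 of the 58 were found among its 20851 listed genes. In A375 RIPK4.KO cells 6 of the 52 members with enough counts to be tested were lower than in A375 neg cells, and 0 were higher. That is 11.5% of the members, beside 9.04% of all genes changed in either direction and 4.65% changed lower. The 6 were the antiviral enzymes OAS1 and OAS2, the exonuclease ISG20, the RNA-binding protein IFIT2, the GTPase GBP2 and the transcription factor STAT2. The largest difference was that of OAS1, 5.72-fold lower, and the smallest was that of STAT2, 1.76-fold lower. The JAK kinases, the RNA and DNA sensors tested, the IFITM proteins and the PML body genes did not pass the test.

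Interferons are secreted proteins that cells release when they sense viral nucleic acid, and tumour cells can also make and answer them. Type I interferons bind the receptor pair IFNAR1 and IFNAR2, and type II interferon binds IFNGR1 and IFNGR2. The receptors switch on JAK kinases, which phosphorylate STAT factors. STAT2 joins IRF9 and another STAT factor in the complex ISGF3, which binds a short DNA element, the interferon-stimulated response element, in front of the genes it induces. Some cancer lines keep part of this programme running without added interferon.

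The study asked what loss of the kinase RIPK4 does to melanoma cells. It compared 3 libraries of A375 RIPK4.KO cells (the knockout), made with a lentiviral CRISPR/Cas9 guide to RIPK4, with 3 libraries of A375 neg cells (the control), made in the same way with a guide that has no target in the human genome. The labels call the latter a GFP control. Both groups were grown in RPMI-1640 medium with serum, and no interferon or other agent is named for either. The study describes the 3 libraries per group as independent biological replicates without saying how they were kept apart, and the p-values measure the spread between these libraries. The A375 RIPK4.KO libraries are all of clone #1, so an effect of RIPK4 and a difference between that clone and the control cells cannot be told apart.

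The libraries held 21882863 to 26694140 counts. RIPK4 itself, the targeted gene, had 319, 368 and 404 raw counts in control and 42, 51 and 61 in knockout libraries, a log2 fold change of -2.69 (SE 0.17, adjusted p 1.01e-05). Some markers of cell type and cell state differed between the groups, and others did not pass the test. In the melanocyte lineage, SOX10 was present in every library at 7448 to 10056 counts (log2 fold change -0.20, adjusted p 0.0507), MITF had -0.44 (adjusted p 0.0449), S100B had -0.89 (adjusted p 0.0360), and TYR, DCT and MLANA, which mark pigmented cells, were not listed. The summed level of this list was 385 to 416 CPM (counts scaled to library size) in control and 332 to 349 in knockout libraries. Of the markers of undifferentiated melanoma, NGFR (-3.03) and WNT5A (-1.19) were changed lower and SOX9 (2.71) higher, and their sum was 786 to 831 and 838 to 904 CPM. Leukocytes, which can carry interferon-induced transcripts into a sample, were checked with marker genes, of which 6 were listed: PTPRC and NKG7 were at 3 counts or fewer in every library, and the summed level was 42.7 to 49.3 and 48.1 to 51.8 CPM, most of it from CD68, which other cells also express. The keratinocyte markers summed to 71.5 to 75.2 and 53.3 to 66.2 CPM, with KRT14 changed lower (-1.75) and KRT10 at -0.0055, and the fibroblast markers to 7.498 to 9.23 and 6.20 to 6.47. The endothelial markers summed to 12.2 to 16.5 and 17.9 to 19.7 CPM, with PECAM1 changed lower (-2.12) and KDR higher (0.60). The part of these markers in the results was not tested. Knockout replicate 2 differed from the other libraries of its group by a chi-square of 19.3 to 23.05 per gene, against 6.17 to 8.52 for the remaining pairs within a group, so the counts were also made without it.

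The groups were compared by the quasi-likelihood test of edgeR with Benjamini-Hochberg adjustment across the 14443 genes tested, and a gene counted as changed when its adjusted p was under 0.05 and the groups differed at least 1.5-fold. By that rule 6 of the 52 members tested (11.5%) were changed, beside 9.04% of all genes tested. By direction, the 6 lower members compare with 4.65% of all genes called lower, and the 0 higher members with 4.39% called higher. At an unadjusted p under 0.05, 19 members were lower and 4 were higher, beside 14.9% and 15.1% of all genes. DESeq2 also called 6 lower and 0 higher, beside 4.17% and 4.08% of all genes it tested. At 2-fold or more, 5 members were lower, beside 2.76% of all genes. By the adjusted p alone, 12 members were lower and 1 was higher (25.0%), beside 16.6% of all genes, of which 8.24% were lower and 8.4% higher. The median log2 fold change of the members tested was -0.18, beside -0.0047 over all genes tested. In 38 of the 52 the estimate was below 0, beside 50.7% of all genes tested. In 22 the normalized counts of all 3 knockout libraries lay under those of all 3 control libraries, beside 17.8% of all genes so separated. The opposite separation was seen in 4 members, beside 18.7% of all genes. Without knockout replicate 2, 8 members were changed, all lower, the 6 above with IFI35 and IFI6, beside 4.5% of all genes called lower. In bulk RNA, fewer cells that express a gene and less of its RNA per cell cannot be told apart.

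**Figure D1:**
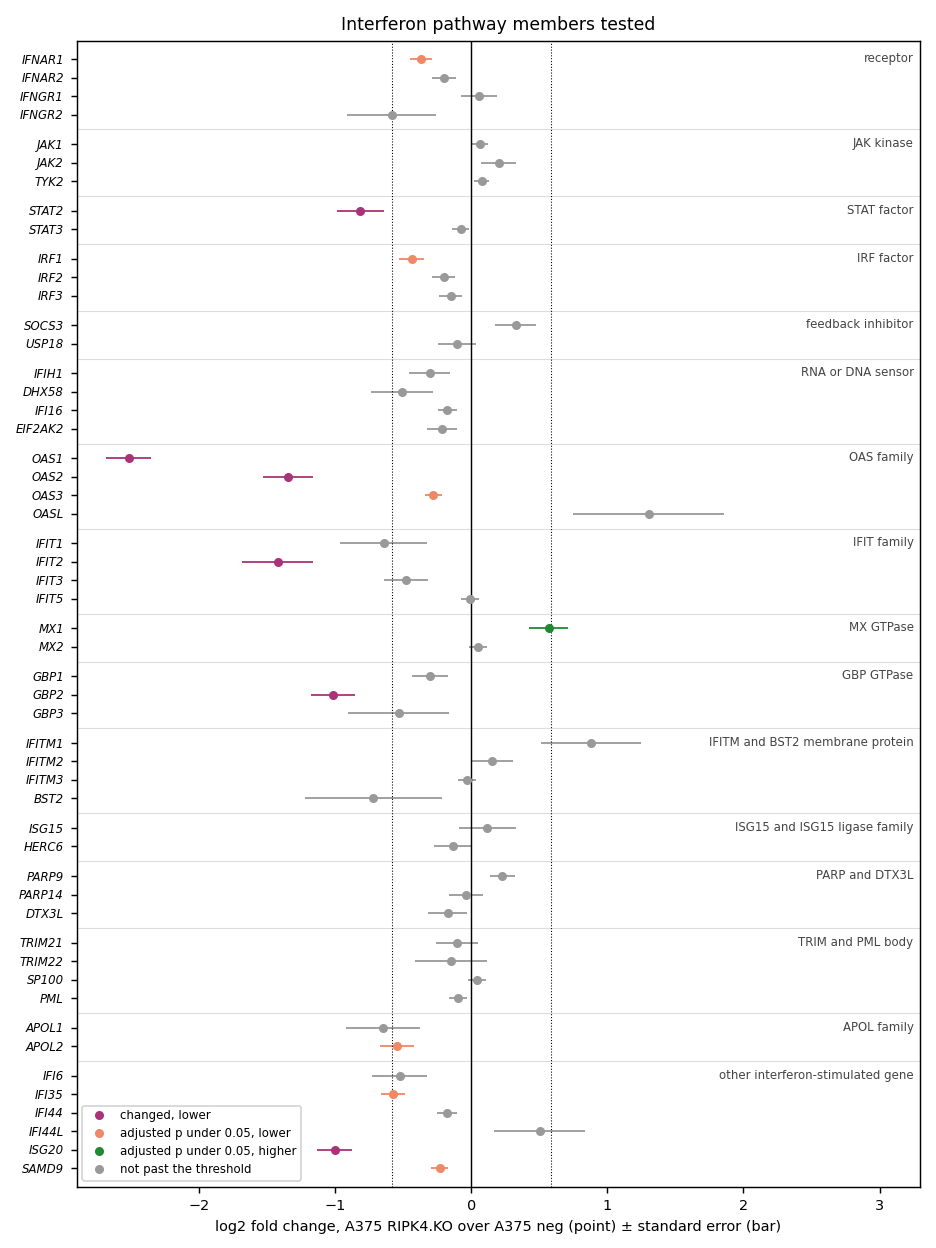
Log2 fold change of the 52 members tested, A375 RIPK4.KO over A375 neg, in groups by role; points are edgeR estimates, bars are standard errors and dotted lines mark a 1.5-fold difference. OAS1 lies farthest to the left at -2.52, the 6 changed members are all on the left, and MX1 is the only member on the right with an adjusted p under 0.05.

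At the head of the pathway, 1 of the 4 receptor subunits passed the adjusted p. IFNAR1, a subunit of the type I receptor, had 1681, 1563 and 1759 raw counts in control and 1145, 1113 and 1281 in knockout libraries. All 3 knockout libraries were under all 3 of the control, also after normalization, and the difference of -0.37 on the log2 scale (SE 0.08, adjusted p 0.0137) was short of 1.5-fold. Its adjusted p was 0.0672 without control replicate 1 and 0.0631 without replicate 3. Its partner IFNAR2 had 553, 581 and 536 raw counts against 420, 411 and 495. The groups did not overlap there either, but the log2 fold change of -0.20 (SE 0.09) did not pass the test (adjusted p 0.179). In the annotation, 46.8% of the exon bases of IFNAR2 are shared with another protein-coding gene on the same strand, so part of its count is uncertain.

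The receptor of type II interferon gave no difference past the test. IFNGR1, its ligand-binding chain, had 240, 260 and 256 raw counts in control and 195, 254 and 269 in knockout libraries, and the groups overlapped (log2 fold change 0.06, SE 0.13, adjusted p 0.819). IFNGR2, its accessory chain, had 53, 120 and 57 against 45, 54 and 39 (log2 fold change -0.59, SE 0.33, adjusted p 0.270). The table also lists a copy of IFNGR2 on a scaffold, with 195, 262 and 257 raw counts in control and 15, 21 and 246 in knockout libraries. Knockout replicates 1 and 2 stood far under the control there, while replicate 3 stood at the level of the control libraries. Summed over both entries, IFNGR2 had 248, 382 and 314 counts against 60, 75 and 285, a log2 fold change of -1.05 (SE 0.48, adjusted p 0.176). How reads that match both entries were placed is not given in the sources used here. The summed counts of IFNGR2 thus differed between knockout libraries, and no difference between the groups was detectable.

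IL10RB, a chain of the type III interferon receptor that is not among the 58 members, lies between IFNAR2 and IFNAR1 on chromosome 21. It had 458, 503 and 422 raw counts in control and 318, 318 and 252 in knockout libraries, which do not overlap. The log2 fold change was -0.50 (SE 0.13, adjusted p 0.0336), again short of 1.5-fold. IFNLR1, the other chain of that receptor, had 149, 154 and 159 against 87, 107 and 118 and did not pass the test (adjusted p 0.105).

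**Figure D2:**
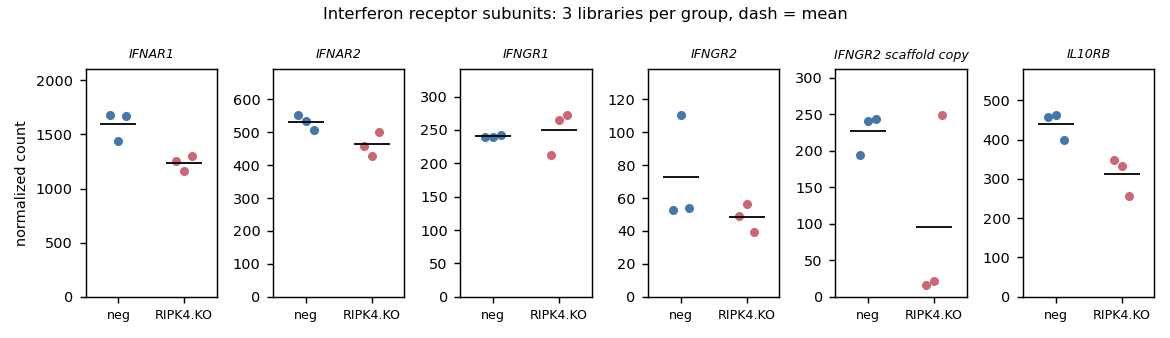
Normalized counts of the interferon receptor subunits, with the scaffold copy of IFNGR2 and IL10RB; each point is 1 library, each dash is the group mean, and each panel starts at 0 on its own scale. The groups are apart in IFNAR1, IFNAR2 and IL10RB and overlap in IFNGR1 and IFNGR2, and the scaffold copy shows 1 knockout library at the level of the control.

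The JAK kinases, which start the signal inside the cell, gave no difference past the test. JAK1 and TYK2, the kinases of the type I receptor, had log2 fold changes of 0.06 (SE 0.06, adjusted p 0.533) and 0.08 (SE 0.05, adjusted p 0.387). JAK2, which serves the type II receptor, had 0.20 (SE 0.13, adjusted p 0.338). Of these 3 genes 0 had an unadjusted p under 0.05 with edgeR, and DESeq2 called 0.

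STAT2, the STAT factor particular to the type I and type III pathways, was changed. It had 601, 538 and 553 raw counts in control and 321, 212 and 344 in knockout libraries. Every knockout library was under every control library, and replicate 2 was the lowest. The normalized counts were 540 ± 54.5 and 307 ± 74.2 (SD, n = 3 libraries each), a log2 fold change of -0.81 (SE 0.17, adjusted p 0.0113 with edgeR). Without control replicate 1 the adjusted p was 0.0526. STAT3, which answers chiefly to interleukins of the IL6 family, had 3311, 3337 and 3276 raw counts against 2753, 2722 and 3102, and after normalization the groups overlapped (log2 fold change -0.08, SE 0.06, adjusted p 0.466).

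Among the IRF factors, which bind interferon genes and interferon-induced genes, IRF1 passed the adjusted p. It had 681, 788 and 654 raw counts in control and 431, 519 and 478 in knockout libraries, with no overlap. The difference of -0.44 on the log2 scale (SE 0.09, adjusted p 0.0118) was short of 1.5-fold, and its adjusted p was 0.0668 without control replicate 2 and 0.0541 without knockout replicate 3. IRF2, which competes with IRF1 for the same sites, had a log2 fold change of -0.20 (adjusted p 0.140). IRF3, the factor that starts interferon transcription after viral sensing, had -0.15 (adjusted p 0.277). IRF9, the DNA-binding part of ISGF3, was too low to be tested, with 9, 6 and 3 raw counts against 4, 8 and 9. In the annotation 93.5% of its exon bases are shared with another protein-coding gene on the same strand, and how reads in such stretches were counted is not given in the sources used here. IRF7, the interferon-inducible amplifier of interferon transcription, was also not tested, with 5, 5 and 28 raw counts against 32, 6 and 5. A scaffold copy of IRF7 held more, and the summed counts of 37, 48 and 43 against 72, 37 and 18 overlapped between the groups.

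The inhibitors that end the signal gave no call. SOCS3, which blocks JAK kinases, had a log2 fold change of 0.33 (SE 0.15, adjusted p 0.184). USP18, which removes ISG15 from proteins and blocks the type I receptor, had -0.10 (SE 0.14, adjusted p 0.661). SOCS1, the main inhibitor of the type II response, was not tested, with 4, 6 and 7 raw counts against 4, 12 and 1. Of the feedback inhibitors 0 had an unadjusted p under 0.05 with edgeR, and DESeq2 called 0.

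The sensors of viral nucleic acid had estimates below 0 in all 4 members tested, and none passed the test. IFIH1, a sensor of long double-stranded RNA, had a log2 fold change of -0.30 (adjusted p 0.213), and its regulator DHX58 had -0.51 (adjusted p 0.171). IFI16, a DNA sensor, had -0.18 (adjusted p 0.124), and the RNA-activated kinase EIF2AK2 had -0.22 (adjusted p 0.228). Of the 4, 0 passed the adjusted p with edgeR or DESeq2, and 1 had an unadjusted p under 0.05. RIGI, the sensor of RNA ends, was not listed under that name. Its older symbol DDX58 was, with 152, 175 and 197 raw counts against 137, 152 and 145 (log2 fold change -0.13, SE 0.15, adjusted p 0.593), and it is not counted among the members tested.

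The OAS family, enzymes that make a second messenger which activates RNase L upon double-stranded RNA, held the largest difference. OAS1 had 398, 442 and 462 raw counts in control and 57, 86 and 64 in knockout libraries. The highest knockout library was far under the lowest control library. The normalized counts were 414 ± 20.9 and 72.3 ± 15.2 (SD, n = 3 libraries each), a log2 fold change of -2.52 (SE 0.17, adjusted p 1.49e-05 with edgeR), with -2.70 to -2.42 over the fits that each left out 1 library.

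OAS2, whose enzyme makes longer chains of the messenger, had 195, 205 and 182 raw counts in control and 58, 64 and 87 in knockout libraries. The groups were again well apart, with normalized counts of 185 ± 11.6 and 72.8 ± 13.5 (SD, n = 3 libraries each) and a log2 fold change of -1.35 (SE 0.18, adjusted p 0.00102 with edgeR). OAS3, which senses long double-stranded RNA, was the most abundant of the family per kilobase. It had 2777, 2992 and 3195 raw counts against 2108, 2259 and 2364, with no overlap. Its log2 fold change was -0.28 (SE 0.06, adjusted p 0.0141), and the adjusted p was 0.0647 without control replicate 3. OASL, the member without synthetase activity, had 17, 8 and 9 raw counts against 10, 43 and 25. Those groups overlapped and the estimate of 1.31 (SE 0.55, adjusted p 0.151) did not pass the test. OAS1, OAS3 and OAS2 lie side by side in that order on chromosome 12, between positions 112906962 and 113011723 in RefSeq on GRCh38.p14, while OASL lies apart on the same chromosome from 121017761 to 121039246. The neighbours thus differed by 2.52, 0.28 and 1.35 on the log2 scale, all lower, with standard errors of 0.17, 0.06 and 0.18.

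The promoters are shown for members on both sides of the test, because the interferon-stimulated response element, if present, can be seen in their letters. RefSeq promoter windows on GRCh38.p14, 250 bases before to 50 after each gene's start, were matched for 42 of the 58 members (59 windows). They were searched on both strands for the core of the element, GAAA followed by another GAAA after a gap of 2 bases or of 1 base, and for TTCNNNGAA, the core of the site that STAT dimers bind. Each sequence is the 150 bases before the transcript start that its window is built on, 5′ to 3′ on the gene's strand, with the GAAA pairs of either spacing, on either strand, in capitals. OAS1 is at chr12:112906812-112906961 (plus strand), OAS3 at chr12:112938324-112938473 (plus), ISG20 at chr15:88638866-88639015 (plus), IFI35 at chr17:43006634-43006783 (plus), MX1 at chr21:41426089-41426238 (plus, 1 of its 3 windows) and STAT2 at chr12:56360108-56360257 (minus). The stretches of ISG20 and MX1 belong to starts inside the annotated gene, downstream of its outermost start.
OAS1: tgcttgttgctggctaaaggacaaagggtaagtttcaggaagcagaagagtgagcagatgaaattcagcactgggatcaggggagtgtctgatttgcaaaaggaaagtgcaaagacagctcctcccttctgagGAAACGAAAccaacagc
OAS3: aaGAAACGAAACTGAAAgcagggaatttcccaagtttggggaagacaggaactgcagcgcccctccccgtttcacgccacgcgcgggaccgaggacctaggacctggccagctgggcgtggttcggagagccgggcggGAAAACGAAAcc
ISG20: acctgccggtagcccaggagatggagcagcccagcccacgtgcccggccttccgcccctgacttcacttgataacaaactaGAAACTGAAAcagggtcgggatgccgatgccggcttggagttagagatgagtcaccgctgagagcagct
IFI35: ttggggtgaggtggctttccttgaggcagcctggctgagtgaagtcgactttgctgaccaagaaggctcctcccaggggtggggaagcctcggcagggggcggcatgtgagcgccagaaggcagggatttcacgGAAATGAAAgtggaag
MX1: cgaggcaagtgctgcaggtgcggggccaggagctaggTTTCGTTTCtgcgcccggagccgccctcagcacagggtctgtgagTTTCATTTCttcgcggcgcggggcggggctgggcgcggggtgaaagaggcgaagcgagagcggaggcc
STAT2: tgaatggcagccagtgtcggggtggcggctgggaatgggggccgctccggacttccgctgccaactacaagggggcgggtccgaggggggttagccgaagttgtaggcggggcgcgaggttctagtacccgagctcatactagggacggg

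OAS1, ISG20 and IFI35 each hold 1 match in the stretch shown. OAS3 holds 3, of which the pair at its left end overlaps, and MX1 holds 2 on the opposite strand. The same stretch before the other MX1 starts holds 1 and 0. STAT2 holds none in the 150 bases shown or in its whole window. Over whole windows, the pair with a gap of 2 bases was found for 24 of the 42 members with an entry, beside 4.38% of 27305 genes, and 3.57% of 35116 windows. The pair with a gap of 1 base was found for 11, beside 3.87% of genes and 3.12% of windows, and TTCNNNGAA for 10, beside 9.38% of genes and 7.66% of windows. At least 1 of the GAAA pairs was found for 29 members, beside 7.83% of genes and 6.40% of windows. By role, 28 of 30 effector genes, 1 of 2 inhibitors and 0 of 10 signalling genes held one. They were found both in members past the adjusted p (6 of 9 with an entry) and in members short of it (19 of 28).

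In the IFIT family, proteins that bind foreign RNA and block its translation, 1 of 4 members was changed. IFIT2 had 75, 85 and 71 raw counts in control and 27, 32 and 19 in knockout libraries. The groups were apart, at normalized counts of 73.5 ± 5.6 and 27.4 ± 7.3 (SD, n = 3 libraries each) and a log2 fold change of -1.42 (SE 0.26, adjusted p 0.00552 with edgeR). IFIT1 had a log2 fold change of -0.64 (SE 0.32, adjusted p 0.217) on 38 to 74 raw counts in the control. IFIT3, with a larger count, had -0.48 (SE 0.16, adjusted p 0.0727), and IFIT5 had -0.01 (SE 0.06, adjusted p 0.942). IFIT5 was the most abundant of the family per kilobase. The IFIT genes resemble each other, and how reads shared between such genes were counted is not given in the sources used here, so their separate values carry that uncertainty.

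The GBP GTPases, which attack the vacuoles of intracellular microbes, gave 1 call among 3 members. GBP2 had 168, 188 and 207 raw counts in control and 87, 88 and 78 in knockout libraries. No library of one group came near the other, with normalized counts of 179 ± 15.02 and 88.7 ± 8.5 (SD, n = 3 libraries each) and a log2 fold change of -1.01 (SE 0.16, adjusted p 0.00268 with edgeR). GBP1 had -0.31 (SE 0.13, adjusted p 0.159) with no overlap of the groups, and GBP3 had -0.53 (SE 0.37, adjusted p 0.382). The APOL genes, which encode lipid-binding proteins induced by interferon, gave 1 adjusted p under 0.05 and 0 calls with edgeR or DESeq2. APOL2 had 369, 376 and 376 raw counts against 244, 201 and 255, a log2 fold change of -0.54 (SE 0.12, adjusted p 0.0168). Its adjusted p was 0.0528 to 0.0629 when any 1 control library was left out. APOL1 had -0.65 (SE 0.27) and did not pass the test (adjusted p 0.146).

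ISG20, an exonuclease that degrades single-stranded RNA, was the most abundant of the changed members per kilobase. It had 923, 954 and 1030 raw counts in control and 381, 542 and 398 in knockout libraries. All knockout libraries were under the control, with replicate 2 the highest of the 3. The normalized counts were 926 ± 48.8 and 462 ± 90.2 (SD, n = 3 libraries each), a log2 fold change of -1.003 (SE 0.13, adjusted p 0.000699 with edgeR). IFI35, a partner of the protein NMI, had 521, 601 and 601 raw counts against 317, 376 and 359. Those groups were apart too, and the log2 fold change of -0.58 (SE 0.09, adjusted p 0.00246) lay just short of 1.5-fold. SAMD9, a restriction factor for poxviruses, had 1323, 1424 and 1404 raw counts against 1070, 1064 and 1079, a log2 fold change of -0.23 (SE 0.06, adjusted p 0.0315). Its adjusted p reached 0.117 without knockout replicate 3 and 0.104 without any 1 control library.

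MX1, a GTPase that traps viral nucleocapsids, was the only member past the adjusted p on the higher side. It had 175, 240 and 178 raw counts in control and 257, 279 and 262 in knockout libraries. The position deposited with these counts did not overlap the RefSeq gene on its chromosome, as for no other member, so the locus behind them is uncertain. The lowest knockout library was above the highest control library, and the log2 fold change was 0.57 (SE 0.14, adjusted p 0.0262), short of 1.5-fold. Without control replicate 2, the highest of the control, it was 0.70 (adjusted p 0.0203), which passes both limits. Without control replicate 1 or 3, or knockout replicate 1 or 3, the adjusted p was 0.0555 to 0.0914. Its neighbour and relative MX2 had 2531, 2783 and 2427 raw counts against 2234, 2551 and 2530, with overlapping normalized counts (log2 fold change 0.05, SE 0.07, adjusted p 0.645).

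**Figure D3:**
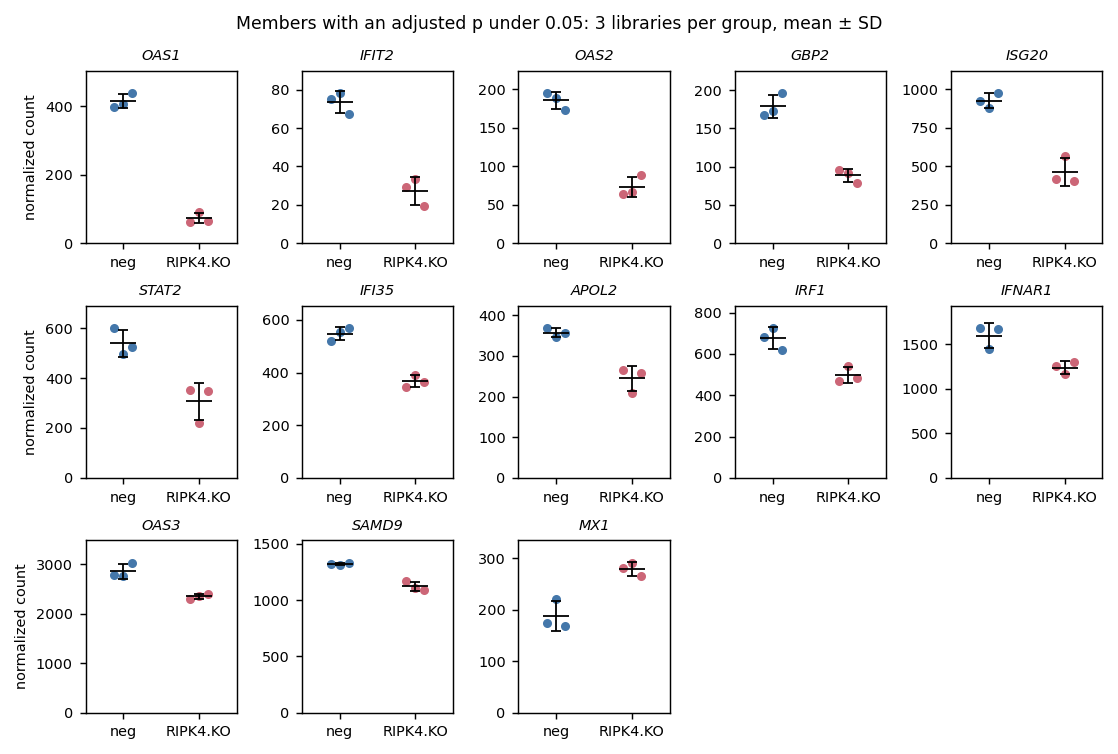
Normalized counts in each library for the 13 members with an adjusted p under 0.05, ordered by fold change; points are libraries, long dashes the mean and bars the SD of 3 libraries, and each panel starts at 0 on its own scale. The knockout libraries are all under the control in 12 panels and all above it for MX1.

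In the other effector groups 0 members passed the adjusted p with edgeR or with DESeq2. Among the membrane proteins that hold viruses at the cell surface or in endosomes, IFITM3 had a log2 fold change of -0.03 (SE 0.07), IFITM2 had 0.15 (SE 0.16), IFITM1 had 0.88 (SE 0.37) and the tether BST2 had -0.72 (SE 0.51). IFITM1 and BST2 rested on 8 to 34 raw counts per library, and 1 of these 4 genes had an unadjusted p under 0.05. The ubiquitin-like modifier ISG15 had 0.12 (SE 0.21), and HERC6, of the family of its ligases, had -0.13 (SE 0.14). In the complex of PARP9 and DTX3L, which modifies chromatin and STAT signalling, PARP9 had 0.23 (SE 0.09, an unadjusted p under 0.05) and DTX3L had -0.17 (SE 0.15), while the related PARP14 had -0.04 (SE 0.13). SP100 and PML, which build the PML nuclear bodies, had 0.04 (SE 0.07) and -0.10 (SE 0.07), and the ubiquitin ligases TRIM21 and TRIM22 had -0.11 (SE 0.15) and -0.15 (SE 0.26). Of the remaining induced genes, IFI6 had -0.53 (SE 0.20, adjusted p 0.117), IFI44 had -0.18 (SE 0.08) and IFI44L had 0.50 (SE 0.33). In all, 21 of the 52 members had an estimate between -0.2 and 0.2 on the log2 scale.

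IFI27 and XAF1, which interferon induces strongly in many cells, were at or near 0. IFI27 had 6 raw counts in control replicate 3 and 0 in the other 5 libraries. XAF1 had 0, 1 and 0 raw counts in control and 1, 2 and 0 in knockout libraries. Neither could be tested, and no difference was detectable at this depth.

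Levels were compared between genes as FPKM, computed here from the raw counts by dividing by the exon length and the TMM-scaled library size. The members tested had a median of 5.29 FPKM, beside 6.29 for the 13191 genes tested with a known exon length, and ranged from 0.166 (IFI44L) to 82.1 (IFITM3). IFITM3 had 2353, 2770 and 2641 raw counts in control and 2086, 2484 and 2343 in knockout libraries, a level of 83.0 and 81.2. IFI16 had 2831, 2928 and 2653 raw counts against 2300, 2247 and 2231, a level of 37.3 and 33.0. MX2 had a level of 33.0 and 34.3, and STAT3 of 25.5 and 24.2. IRF3 had 1966, 2178 and 1966 raw counts against 1515, 1901 and 1590, a level of 33.1 and 29.8, and 20.1% of its exon bases lie opposite another protein-coding gene. These 5 most abundant members all missed the test. The 6 changed members lay lower, with a mean level over the 6 libraries of 13.2 for ISG20, 5.09 for STAT2, 2.46 for GBP2, 2.41 for OAS1, 0.843 for OAS2 and 0.501 for IFIT2.

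**Figure D4:**
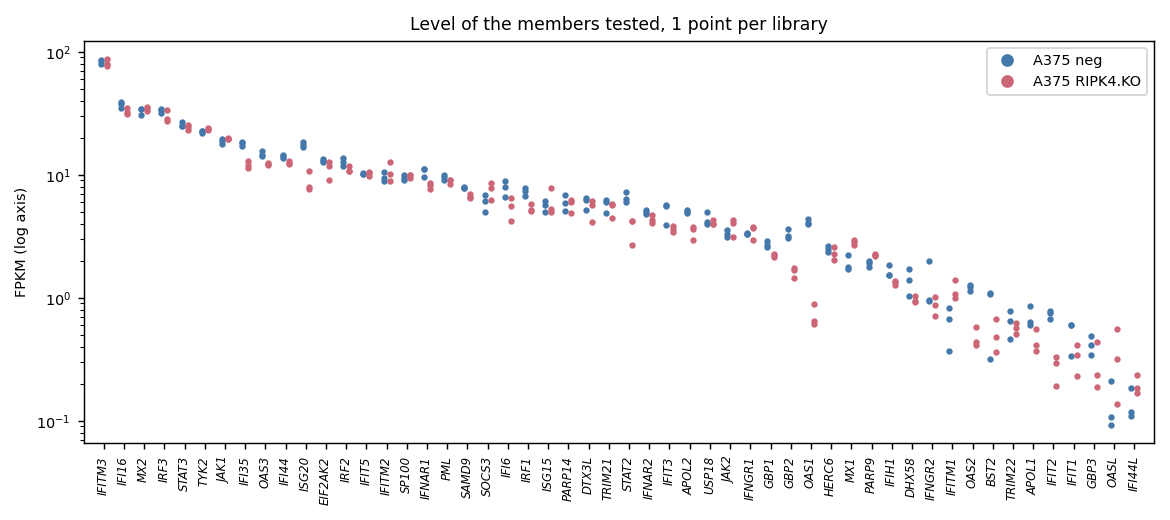
Level of the 52 members tested in each library as FPKM, on a log axis, ordered by the mean over the 6 libraries; blue points are A375 neg and red points A375 RIPK4.KO. The 5 members at the left, from IFITM3 to STAT3, show overlapping or close colours, and the widest gap is that of OAS1.

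Summed within groups by role, in FPKM and with no test, the OAS genes gave 19.7 to 21.3 in the control libraries and 13.1 to 14.1 in the knockout libraries. The GBP genes gave 6.25 to 6.64 and 3.90 to 4.32, and the APOL genes 5.51 to 6.05 and 3.32 to 4.31. The receptors gave 19.9 to 20.6 and 16.4 to 17.8, and the IFIT genes 15.5 to 17.2 and 14.3 to 14.6. The other interferon-stimulated genes gave 63.6 to 68.2 and 42.8 to 49.2, the sensors 51.2 to 55.6 and 44.0 to 50.03, the IRF factors 52.5 to 54.8 and 43.6 to 51.6, and the STAT factors 30.8 to 34.0 and 25.6 to 29.6. The level of these sums is set largely by their most abundant genes, and they include the members called above. The difference between knockout and control need not come from the most abundant genes. Taken by themselves, STAT3, IRF3 and IFIT5, each the most abundant of its group, overlapped between control and knockout libraries. Several less abundant members of these groups overlapped too. In the 9 groups above every knockout library was under every control library, beside 17.8% of all single genes tested. They overlapped for the IFITM and BST2 group (90.6 to 96.6 and 87.2 to 102), for the MX genes (32.5 to 36.6 and 35.5 to 38.6) for the TRIM and PML group (24.5 to 25.8 and 24.0 to 25.5), for the inhibitors (9.08 to 12.04 and 10.2 to 12.8), for ISG15 with HERC6 (7.47 to 8.48 and 7.02 to 10.4) and for the PARP group (12.1 to 15.3 and 11.2 to 14.6). The JAK kinases lay above the control in every knockout library (43.4 to 45.7 and 46.7 to 47.3), beside 18.7% of all single genes tested. Sums pool several genes, so the shares of single genes given here are not a like background for them.

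A further 77 genes of the pathway that are not among the 58 members were read in the same way. Of these, 62 were listed and 57 tested. By edgeR 2 were changed, both lower, and 0 were higher, beside 9.04% of all genes changed. At an unadjusted p under 0.05, 17 were lower and 5 higher, beside 14.9% and 15.1% of all genes. DESeq2 called 2 lower and 1 higher, beside 4.17% and 4.08%. Their median log2 fold change was -0.07. HERC5, the main ligase that attaches ISG15, had 37, 47 and 34 raw counts in control and 8, 12 and 12 in knockout libraries, with the groups well apart (log2 fold change -1.74, SE 0.32, adjusted p 0.00519). SECTM1, an interferon-induced protein of the cell surface, had 204, 236 and 206 raw counts against 58, 79 and 62, likewise apart (log2 fold change -1.56, SE 0.17, adjusted p 0.000307). By the adjusted p alone 9 were lower and 3 higher, beside 8.24% and 8.4% of all genes. Of 10 interferon ligand genes 1 was listed, IFNE, a type I interferon of epithelia, with 27, 19 and 28 raw counts against 48, 20 and 50 (log2 fold change 0.80, SE 0.39, adjusted p 0.205). Without knockout replicate 2, IFNE was changed, higher.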

How the data were processed

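Poly(A) RNA of 6 A375 libraries was sequenced with a directional kit. The authors' raw counts per gene were deposited as whole numbers without normalization. The submitters' processing notes name cutadapt, FastQC, HISAT2, HTSeq, DESeq2 and the build GRCh38.p13, with no versions, and how HTSeq treated strand and reads that map to several genes is not given in the sources used here. The deposited normalized counts, a signal scaled by the authors with DESeq2, fill 6 columns and were not used. The deposited fold changes, Wald statistics and p-values of the authors' own test were left out as well.

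The test was edgeR's quasi-likelihood test (edgeR 4.0.16, R 4.3.3) on raw counts after TMM scaling and filterByExpr, with Benjamini-Hochberg adjusted p-values across 14443 genes and standard errors taken from the log2 fold change and its F statistic. Normalized counts are raw counts divided by the TMM-scaled library size relative to the mean. Exon lengths and overlaps came from GENCODE 29, and promoters from RefSeq on GRCh38.p14. The position in the table overlapped the RefSeq gene on its chromosome for 57 of 58 members, all but MX1. Total counts of 21882863 to 26694140 set the precision, and all intervals of error cover these libraries only.

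As alternatives, DESeq2 1.42.0 replaced the test or only the scaling, the low-count filter was dropped or set to a mean of 50 counts, replicate numbers entered as a block, gene length was corrected for, scaffold copies were summed, thresholds were moved, and single libraries were left out. Any member may be named. Values in every library are given for RIPK4, the members past the adjusted p, the receptors, the members not tested and the 5 most abundant, and other pathway genes are named when changed. MX2, OASL, IL10RB, IFNLR1, IFNE and the markers were given in full after their values were seen. The members and lists were chosen with earlier results of these data known. On simulated counts for this comparison with 200 genes changed 2-fold, edgeR recovered 122 of the 197 that passed its filter with 3 false calls, and DESeq2, run without that filter, 123 of 200 with 10. Python 3.11.15 with matplotlib 3.10.9 made the figures.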

Additional observations from a re-analysis of the deposited data

How the results depend on the processing

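The 6 changed members were called again by DESeq2, by DESeq2's size factors in edgeR, without a filter, at a mean of 50 counts and with summed copies, and 7 were called after the gene length correction, which added IFI35. When single libraries were left out the count was 6 to 8 (6 to 8 lower, 0 to 1 higher), STAT2 was lost without A375 neg replicate 1 (-0.73), and IFI35, IFIT3, MX1, APOL2 or IFI6 was added, each with certain libraries left out. At the adjusted p alone the counts were 13 members (12 lower, 1 higher), 12 other pathway genes and 2403 genes in all, and at 2-fold there were 5 members and 793 genes. Other pathway genes changed numbered 1 at a mean of 50 counts, without HERC5, and 2 to 5 with a library left out. The 5 were found without A375 RIPK4.KO replicate 2: SECTM1, HERC5 and WARS1, lower, and GBP4 and IFNE, higher. The members' median was -0.20 to -0.16 with a library left out, and RIPK4 -2.80 to -2.59. Whether replicate numbers pair the libraries could not be told, as the same-number correlations of 0.08, 0.04 and -0.01 were all small. A375 neg replicates 1 and 2 correlated best with the A375 RIPK4.KO replicate of the same number. A375 neg replicate 3 correlated best with A375 RIPK4.KO replicate 2. The replicate block gave 6 members and 3 other pathway genes. The sign turned for 8 members that missed the test, with ranges over the fits without 1 library of -0.0075 to 0.16 (IFNGR1), -0.17 to 0.0038 (USP18), -0.028 to 0.023 (IFIT5, and 0.0017 with the length correction), -0.081 to 0.010 (IFITM3), -0.11 to 0.24 (ISG15), -0.14 to 0.078 (PARP14), -0.21 to 0.0047 (TRIM21) and -0.33 to 0.030 (TRIM22). Of 668 values of the members under an alternative, 650 kept direction and side of the threshold. The cause of these shifts was not tested. Of the members tested, 8 had a mean under 50 counts, where depth limits what can be seen, and OAS, IFIT, GBP, APOL and IFITM genes may share reads with their relatives.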

Other observations

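Further genes that interferon induces, chosen here after their values were seen, were nearly silent in the control. GBP4, a GTPase of the GBP family, had 2, 2 and 1 raw counts in control and 19, 6 and 10 in knockout libraries, and all 3 knockout libraries were above the control. It was too low for the edgeR test of all 6 libraries and was called higher by DESeq2, beside 4.08% of all genes DESeq2 tested. RSAD2, an antiviral enzyme, had 0, 1 and 0 raw counts against 4, 4 and 1. EPSTI1 had 6, 0 and 0 against 1, 3 and 0. With so few control counts GBP4 could hardly lie lower, so its separation and its DESeq2 call could hardly have pointed the other way. Its contrast with GBP2 of the same family was not tested.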
